A study of Homo sapiens with 12 samples.

Results

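The genes described here encode proteases that cut other proteins inside the lipid membrane, together with the partner subunits of 1 of them. They are 8 of the 29972 gene rows in each table: 4 of the signal peptide peptidase family (SPPL2A, SPPL2B, SPPL3 and HM13) and 4 of the γ-secretase complex (PSEN2, NCSTN, APH1A and PSENEN). SPPL2A was included because its mRNA fell strongly after PHF19 siRNA in both cell lines, so its values are given as a description without a test. The other 7 were named as its relatives, to see whether they changed too.

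The mRNA came from 2 human triple-negative breast cancer lines, MDA-MB-436 and BoM-1833, the latter a bone-seeking derivative of another line, MDA-MB-231. Control cells received a non-targeting siRNA pool (siNT) and treated cells an equal mixture of 2 siRNAs against PHF19 (siPHF19), in both cases at 5 nM in total and for 72 h. PHF19 is an accessory subunit of the Polycomb repressive complex PRC2. Each of the 4 groups had 3 libraries, and nothing in the labels says whether these came from separate cultures, so the tests measure the spread between libraries. Every treated library received the same mixture and the control pool came from another supplier, so an effect of losing PHF19 and any other effect of these siRNAs cannot be told apart. Bulk RNA also cannot tell fewer cells with a transcript from less of it per cell.

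Libraries held between 13748100 and 24010271 reads assigned to genes. PHF19 mRNA, the siRNA target, stood at 9.75% of control (MDA-MB-436) and at 10.9% (BoM-1833). Of the receptors that define the triple-negative type, ESR1 had at most 3.97 and PGR at most 1.84 normalized counts in any library, whereas ERBB2 mRNA was present at 932 or more. The mesenchymal marker VIM stood at 18097 or more and the epithelial marker CDH1 at 27.6 or less, while KRT8 and KRT18 were at 999 or more. The leukocyte marker CD3E was at 0 in all libraries, PTPRC was at most 21.2, and CD14 lay between 83.9 and 337.

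Signal peptide peptidases and presenilins are aspartyl proteases of the same fold: a pair of aspartates in neighbouring membrane helices form the active site. HM13 encodes signal peptide peptidase itself, which clears signal peptides left in the membrane of the endoplasmic reticulum. SPPL2A works in late endosomes and lysosomes, where it removes the membrane stub of CD74, and it also cuts the stubs of TNF and Fas ligand. SPPL2B is its closest relative, and SPPL3 sits in the Golgi, where it releases glycosyltransferases. In γ-secretase a presenilin is the catalytic subunit, NCSTN (nicastrin) receives the substrate, APH1A is the scaffold and PSENEN (PEN-2) triggers maturation of the presenilin. The complex cuts the stubs of Notch receptors, APP, CD44 and many other type I membrane proteins.

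The second catalytic aspartate of these enzymes lies in a short motif, glycine, any residue, glycine, aspartate. The 30 coding bases around it are shown for the 5 catalytic members because they are what the family shares at the active site and show how far the members differ in the mRNA that was counted. They were read from GENCODE 29 principal transcripts (GRCh38), 5′ to 3′, with the 12 bases of the motif in capitals and 9 bases on each side.
SPPL2A: tcaatattgGGTTTTGGAGACattattgta
SPPL2B: tccctcctgGGTTTCGGAGACattttggtg
SPPL3: tccatgttgGGCATCGGAGACatcgttatg
HM13: gccatgctgGGACTTGGAGATgtcgtcatt
PSEN2: gtgaagcttGGCCTCGGGGACttcatcttc
The stretch of SPPL2A is on the minus strand of chromosome 15 in exon 12 of 15 (chr15:50725225-50725254), and begins its motif at codon 409 of 520. That of SPPL2B is in exon 12 of 15 on the plus strand (chr19:2344619-2344648), that of SPPL3 in exon 9 of 11 on the minus strand (chr12:120767545-120767574), that of HM13 in exon 8 of 12 on the plus strand (chr20:31554796-31554825) and that of PSEN2 in exon 12 of 13 on the plus strand (chr1:226894012-226894041). The motif occurs 1 time in each coding sequence of the signal peptide peptidase family and 2 times in PSEN2, of which the first is shown. Base by base without gaps, SPPL2A matched SPPL2B at 22 of 30 positions, SPPL3 at 21, HM13 at 17 and PSEN2 at 14. Even the closest pair therefore differs at several positions in so short a stretch of the coding sequence.

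SPPL2A mRNA was lower in every siPHF19 library of both lines. The normalized count, reads divided by the size factor of the library, stood at 660, 598 and 620 in the MDA-MB-436 controls and at 155, 175 and 136 in the treated libraries (values throughout are in the order of replicates 1 to 3). The highest treated library was far below the lowest control, and the treated mean was at 24.8% of the control mean. The BoM-1833 controls had 955, 907 and 943 and the treated libraries 335, 275 and 297. Here too the groups were widely apart, with the treated mean at 32.3% of control. As log2 fold changes, the authors' deposited table lists -2.00 (SE 0.13) for MDA-MB-436 and -1.63 (SE 0.10) for BoM-1833, changes of -75.1% and -67.6%. Genes averaging 100 or more normalized counts numbered 10916 and 10669, and SPPL2A ranked 6 and 4 from the lowest log2 fold change among them. Its spread between libraries was larger relative to the mean after siPHF19 (SD 12.4% and 10.04% of the mean) than in siNT (5.03% and 2.65%). Each SD rests on 3 libraries, and whether the lower counts account for this difference was not tested. SPPL2A spans chromosome 15 from 50702266 to 50765808 on the minus strand and has 1 coding transcript in the basic annotation, 7372 bases long with 1560 coding bases. It overlaps the antisense transcript AC012100.2 over 3121 bases and AC012100.3 on its own strand over 575 bases.

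**Figure D1:**
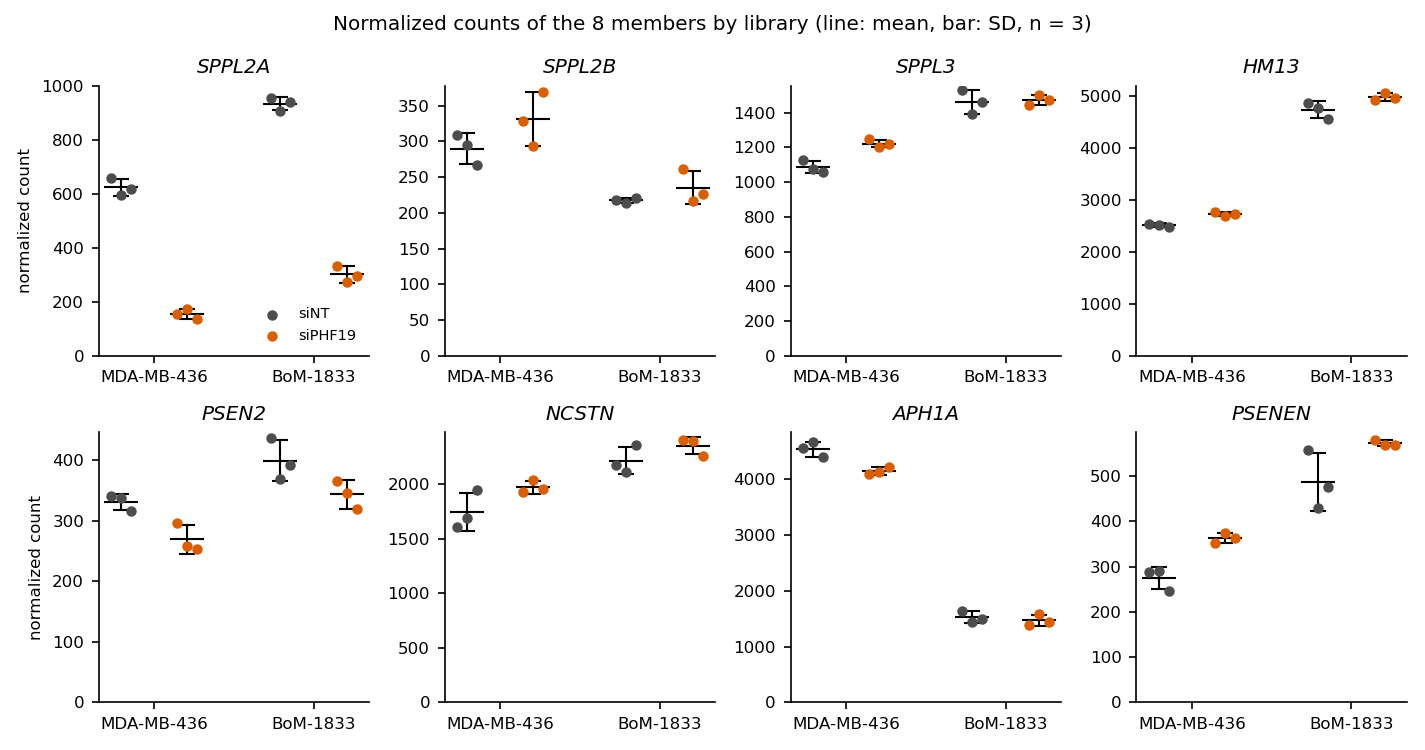
Normalized counts (y axes, from 0) of each member in each library, grouped by line (x axis); points are the 3 libraries of siNT (grey) or siPHF19 (orange), lines the mean and bars the SD. SPPL2A drops to 24.8% and 32.3% of control, while every other panel stays between 81.2% and 132% of it.

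The closest relative, SPPL2B, showed no comparable change. Its MDA-MB-436 controls had 309, 295 and 267 normalized counts and the treated libraries 329, 294 and 370. The BoM-1833 controls had 218, 214 and 220.4 and the treated libraries 261, 217 and 227. The groups overlapped in both lines, with siPHF19 replicate 3 of MDA-MB-436 and siPHF19 replicate 1 of BoM-1833 standing above the rest. The authors' deposited table gives log2 fold changes of 0.19 (SE 0.14, DESeq2 adjusted p 0.355) and 0.11 (SE 0.14 and adjusted p of 0.740). The 95% intervals run from -0.08 to 0.45 and from -0.17 to 0.40, with lower bounds that correspond to changes of -5.35% and -10.98%. SPPL2B (chromosome 19, 2328615 to 2354806, plus strand) overlaps the gene model AC005258.1 on the same strand over 12558 bases, and its reads may be shared with it.

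SPPL3, the Golgi member, had normalized counts of 1129, 1073 and 1060 in siNT and 1246, 1203 and 1218 in siPHF19 in MDA-MB-436. All treated libraries were above all controls there, but the test was not passed: the authors' deposited table gives 0.17 (SE 0.08, DESeq2 adjusted p 0.104). In BoM-1833 the counts were 1529, 1391 and 1462 in siNT and 1442, 1501 and 1474 in siPHF19. The groups overlapped almost completely, and the authors' deposited table gives 0.011 (SE 0.07 and adjusted p of 0.965), a sign that turned in 2 fits without 1 library (-0.024 without siNT replicate 2, -0.0032 without siPHF19 replicate 2). SPPL3 lies on chromosome 12 from 120762510 to 120904371, minus strand.

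HM13, which encodes signal peptide peptidase, varied little between libraries of a group, with an SD of 1.20% to 3.37% of the mean. The MDA-MB-436 controls had 2543, 2523 and 2484 normalized counts and the treated libraries 2768, 2697 and 2726. The BoM-1833 controls had 4872, 4773 and 4559 and the treated libraries 4917, 5062 and 4969.7. The treated libraries lay above the controls in both lines, though by little: the means were 108% and 105% of control. The authors' deposited table gives 0.12 (SE 0.06, DESeq2 adjusted p 0.176) and 0.07 (SE 0.06 and adjusted p of 0.523). Over the 95% intervals the change lies between -0.37% and 18.1% in MDA-MB-436 and between -2.63% and 13.7% in BoM-1833. HM13 (chromosome 20, 31514410 to 31577923, plus strand) contains the gene MCTS2P and has the antisense gene HM13-AS1 over 5557 bases. SPPL2C, the remaining gene of the family, had 0 reads in all 12 libraries, where 0 reads allow a level of up to 0.125 to 0.218 CPM (3 reads of the library, counting error only).

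PSENEN, in MDA-MB-436, was the 1 call among the 7 members that were tested. Its normalized count in MDA-MB-436 was 289, 291 and 247 in siNT and 352, 374 and 363 in siPHF19. All treated libraries exceeded all controls, and siNT replicate 3 was the lowest. The authors' deposited table gives a rise of 0.39 on the log2 scale (SE 0.12, DESeq2 adjusted p 0.0105), or 31.4%. The call did not survive the loss of most single libraries: the adjusted p (DESeq2) was 0.0581 without siNT replicate 2, 0.0652 without siNT replicate 3, and 0.0677, 0.133 and 0.0856 without siPHF19 replicates 1, 2 and 3, with log2 fold changes between 0.32 and 0.44. In BoM-1833 the counts were 557, 431 and 477 in siNT and 580.1, 570 and 568 in siPHF19. The treated libraries were again higher, but siNT replicate 1 came close to them and the authors' deposited table gives 0.23 (SE 0.11 and adjusted p of 0.206). Without siNT replicate 1 it was 0.34 with an adjusted p of 0.0197 (DESeq2). PSENEN (chromosome 19, 35745114 to 35747519, plus strand) is the smallest member, with 303 coding bases. The gene model AD000671.1 on the same strand covers it over 1842 bases and U2AF1L4 overlaps it on the other strand over 332 bases, so that reads may be shared.

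PSEN2, the presenilin among the members, was lower in every treated library of both lines without a call in the authors' tables. The MDA-MB-436 controls had 340.6, 337 and 316 normalized counts and the treated libraries 297, 258 and 252. The BoM-1833 controls had 436, 369 and 391 and the treated libraries 366, 346 and 318. The groups did not overlap in either line, but in BoM-1833 siNT replicate 2 and siPHF19 replicate 1 were nearly equal. The authors' deposited table gives -0.30 (SE 0.13, DESeq2 adjusted p 0.0705) and -0.22 (SE 0.12 and adjusted p of 0.300). In MDA-MB-436 the gene was past the threshold with edgeR (adjusted p 0.0378) and with limma (0.0417). PSEN2 lies on chromosome 1 from 226870184 to 226896105, plus strand.

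NCSTN, the substrate receptor, had normalized counts of 1608, 1693 and 1942 in siNT and 1923, 2036 and 1954 in siPHF19 in MDA-MB-436. In siNT replicate 3 it was as high as in the treated libraries, so the groups overlapped. The authors' deposited table gives 0.18 (SE 0.09, DESeq2 adjusted p 0.144), and without siNT replicate 3 the value was 0.26 with an adjusted p of 0.00567. In BoM-1833 the counts were 2179, 2112 and 2355 in siNT and 2400, 2393 and 2261 in siPHF19. These groups overlapped, and the authors' deposited table gives 0.09 (SE 0.07 and adjusted p of 0.540). NCSTN is at 160343272 to 160358952 on the plus strand of chromosome 1, has the processed pseudogene NCSTNP1 and meets COPA on the opposite strand over 129 bases.

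APH1A, the scaffold subunit, had normalized counts of 4555, 4663 and 4395 in siNT and 4085, 4126 and 4221 in siPHF19 in MDA-MB-436. Every treated library was below every control by a small margin, and the authors' deposited table gives -0.13 (SE 0.06, DESeq2 adjusted p 0.109). In BoM-1833 the counts were 1645, 1440.4 and 1491 in siNT and 1382, 1584 and 1442 in siPHF19. The groups overlapped, the authors' deposited table gives -0.06 (SE 0.08 and adjusted p of 0.787), and without siNT replicate 1 the value was 0.0031. APH1A (chromosome 1, 150265399 to 150269580, minus strand) overlaps C1orf54 on the opposite strand over 1381 bases. Its paralogue APH1B, the alternative scaffold, had 0.16 (SE 0.14, DESeq2 adjusted p 0.459) and 0.09 (SE 0.13 and adjusted p of 0.765) in the authors' deposited table, with overlapping groups in both lines.

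As a set, the 7 members other than SPPL2A stayed within 31.4% of control. In MDA-MB-436, by the authors' deposited table, 1 of 7 was called at an adjusted p under 0.05 (DESeq2), against 22.1% of all 14243 genes tested, and 5 of 7 had an unadjusted p under 0.05, against 32.6%. The groups did not overlap for 5 of the 7 in MDA-MB-436, where 42.2% of tested genes had groups that did not overlap. In BoM-1833, by the authors' deposited table, 0 of 7 were called (DESeq2), against 10.9% of 12906 genes tested, and 1 of 7 had an unadjusted p under 0.05, against 21.4%. There edgeR and limma also called 0 of 7. Groups did not overlap for 3 of the 7 in BoM-1833, against 31.0% of tested genes. The median log2 fold change of the 7 was 0.17 and 0.07, beside -0.0022 and -0.0035 over all tested genes. In each line 5 of the 7 values were positive and 2 negative, and all 7 had the same sign in both lines. For SPPL3 and APH1A in BoM-1833 that sign turned without 1 library, as given above. The share of all tested genes with the same sign in both lines was not computed, so this agreement cannot be called particular to the members.

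**Figure D2:**
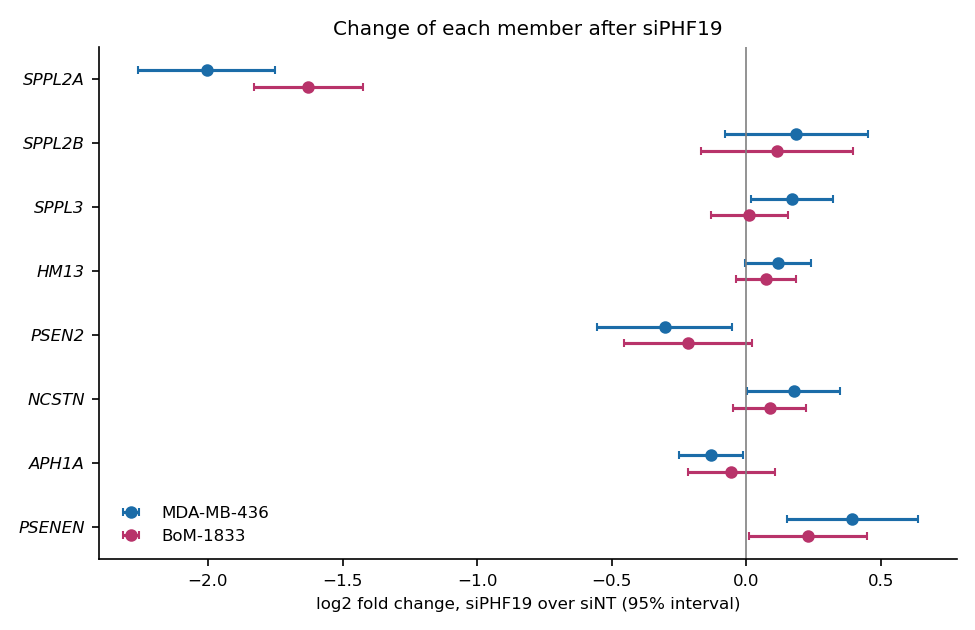
Log2 fold change of siPHF19 over siNT (x axis) for each member (y axis) in MDA-MB-436 (blue) and BoM-1833 (red); bars are 95% intervals from the deposited standard errors. SPPL2A stands at -2.00 and -1.63, while the other 14 values lie between -0.30 and 0.39.

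To ask whether the response depended on the line, the log2 fold changes were compared by z, the difference over its standard error. None of the 7 members was called different between lines (0 of 7 at an adjusted p under 0.05, against 4.89% of 12290 genes tested in both lines). At an unadjusted p under 0.05 it was also 0 of 7, for which the share over all genes was not computed. Beside so low a share, a count of 0 of 7 is not a result about the members. DESeq2 and edgeR models with an interaction term on the recovered reads also called 0 of 7. The lowest adjusted p was 0.501, for SPPL3, whose log2 fold change was 0.16 higher in MDA-MB-436 (95% interval -0.05 to 0.37). For PSENEN the difference was 0.17 (-0.16 to 0.49) and for PSEN2 -0.09 (-0.43 to 0.26), so differences of the size of the changes themselves remain possible. For SPPL2A, as a description, the value in MDA-MB-436 was 0.38 further below 0 (SE of the difference 0.17).

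Levels of different genes were compared within a line after division by the length of the principal transcript. In siNT the order in MDA-MB-436 was APH1A (2649 ± 78.5 normalized counts per kb, SD, n = 3), HM13 (1567 ± 18.8), NCSTN (595 ± 59.2), SPPL3 (262 ± 8.74), PSENEN (166 ± 14.9), PSEN2 (144 ± 5.89), SPPL2A (84.9 ± 4.27) and SPPL2B (83.9 ± 6.22). By this length the last 2 did not differ beyond their spread, nor did PSENEN and PSEN2 lie far apart (lowest PSENEN library 149, highest PSEN2 library 148). In BoM-1833 the order was HM13 (2948 ± 99.5 per kb), APH1A (891 ± 62.1), NCSTN (755 ± 42.9), SPPL3 (352 ± 16.7), PSENEN (294 ± 38.6), PSEN2 (173 ± 14.8), SPPL2A (127 ± 3.36) and SPPL2B (62.9 ± 0.95). SPPL3 and PSENEN were the neighbours in this order whose libraries overlapped, with PSENEN siNT replicate 1 at 335.5 and the lowest SPPL3 library at 335.3 per kb. After siPHF19, SPPL2A was the lowest of all 8 in both lines, at 21.1 ± 2.61 and 41.0 ± 4.11 per kb. The place of HM13 depends on the length used: with all exons of its 5 coding transcripts joined (7467 in place of 1606 bases) its siNT level was 337 and 634 per kb, below NCSTN in both lines.

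**Figure D3:**
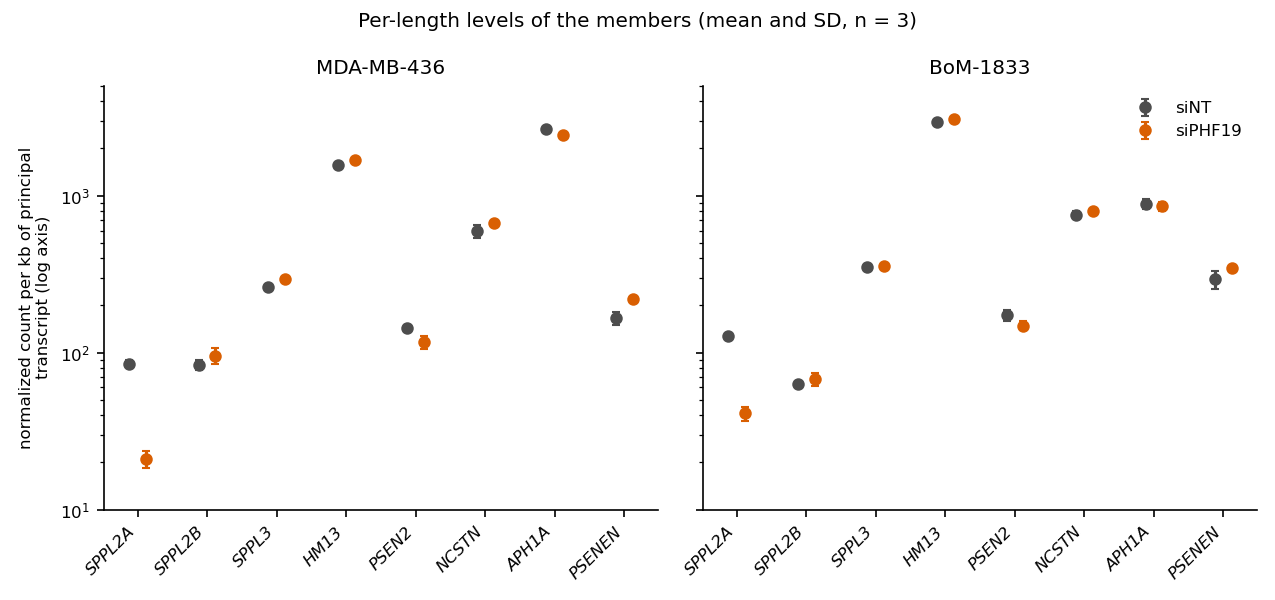
Normalized counts per kb of principal transcript (y axis, log scale) of the members (x axis) in siNT (grey) and siPHF19 (orange); points are means and bars the SD of 3 libraries. SPPL2A falls from seventh place to the lowest level in both lines, from 84.9 to 21.1 and from 127 to 41.0 per kb, and APH1A leads in MDA-MB-436 but not in BoM-1833.

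Ratios within a library do not depend on how the tables were scaled and can be set side by side across lines. SPPL2A and SPPL2B, the pair that shares substrates, stood at a per-kb ratio of 1.00, 0.952 and 1.09 in the siNT libraries of MDA-MB-436 and of 2.05, 1.99 and 2.01 in those of BoM-1833. Whether the pair was level depends on the length used: with joined exons the siNT ratio was 1.51 ± 0.10 for MDA-MB-436 libraries and 2.99 ± 0.05 for those of BoM-1833 (SD, n = 3). After siPHF19 the ratio was 0.220, 0.279 and 0.173 in MDA-MB-436 and 0.601, 0.594 and 0.613 in BoM-1833, so SPPL2B was the more abundant of the pair in all 6 treated libraries, as it was with joined exons (ratios of at most 0.414 and 0.910). Summed over the pair by principal transcript, the MDA-MB-436 controls had 161 to 179 per kb and the treated libraries 109 to 125. The BoM-1833 controls had 185 to 193 per kb and the treated libraries 100.1 to 121. SPPL2A was included for its fall, so the lower sum is a description and not a separate result about the pair. HM13 made up 78.4% ± 0.52 and 84.5% ± 0.60 of the family's per-kb level in siNT by principal transcript (SD, n = 3), but 45.5% ± 0.73 and 54.9% ± 1.14 with joined exons. For SPPL2A these shares were 4.25% ± 0.17 and 3.64% ± 0.13 by principal transcript, and 11.5% ± 0.38 and 10.98% ± 0.27 with joined exons. In γ-secretase the ratio of APH1A to NCSTN was 4.86, 4.72 and 3.88 in MDA-MB-436 siNT and 1.29, 1.17 and 1.09 in BoM-1833 siNT. With joined exons it was 3.26 ± 0.38 and 0.86 ± 0.08 (SD, n = 3), which puts APH1A below NCSTN in BoM-1833. The control libraries of the lines did not overlap in SPPL2A to SPPL2B, APH1A to NCSTN or the share of HM13, with either length. By principal transcript, an exact 2-sided permutation test gave p = 0.1 for each (adjusted p 0.1 over the 3 comparisons). This is the smallest value that 3 against 3 libraries allow, and groups that do not overlap always give it. The test therefore adds nothing to the separation itself. Ratios of PSEN2 and PSENEN to NCSTN were not tested. By the same length, siNT libraries of the lines overlapped in PSEN2 to NCSTN (0.207 to 0.270 in MDA-MB-436, 0.211 to 0.255 in BoM-1833). They did not overlap in PSENEN to NCSTN (0.225 to 0.318 and 0.358 to 0.452). How often ratios of other genes separate the lines was not computed, so these separations cannot be called particular to the members.

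The genes whose pattern over the 12 libraries was most like that of SPPL2A were PITPNA (Pearson's r = 0.995), ATP6V1E1 (0.995), TPM4 (0.993), AZI2 (0.993) and GFPT1 (0.992). This likeness was computed on log2(normalized count + 1) centred within each line, over the 9836 genes that averaged 100 or more normalized counts in each line, and libraries of a group share their treatment. PITPNA encodes a phosphatidylinositol transfer protein, ATP6V1E1 a subunit of the vacuolar proton pump, TPM4 a tropomyosin and GFPT1 the first enzyme of the hexosamine pathway. For these genes, in that order, the authors' deposited table lists log2 fold changes of -0.59, -3.07, -0.81, -0.98 and -0.79 in MDA-MB-436, then -0.51, -2.31, -0.58, -0.67 and -0.66 in BoM-1833. PHF19 had r = 0.988. Among the other members r with SPPL2A ran from -0.898 for HM13 to 0.848 for PSEN2. The genes most like HM13 were CHKA (0.96), ZDHHC12 (0.959) and COMMD2 (0.951), with log2 fold changes between 0.16 and 0.52 in the authors' deposited table.

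None of the tested genes beside SPPL2A was called. Of 13 genes of the tables within 500 kb, 7 were tested in MDA-MB-436, of which 0 were called (DESeq2 as deposited), and 5 in BoM-1833, also with 0 called; at an unadjusted p under 0.05 the counts were 1 and 0. Over all tested genes 22.1% and 10.9% were called, and 32.6% and 21.4% had an unadjusted p under 0.05. Counts of 0 or 1 among so few neighbours are therefore not a result about them. TRPM7, an ion channel kinase gene 15.5 kb away on the same strand, had log2 fold changes of -0.014 (SE 0.09, DESeq2 adjusted p 0.939) and -0.11 (SE 0.09 and adjusted p of 0.536) in the authors' deposited table. AP4E1, a subunit gene of an adaptor complex 143 kb away on the other side, had 0.18 (SE 0.09, DESeq2 adjusted p 0.164) and -0.0032 (SE 0.11 and adjusted p of 0.994) in the authors' deposited table. The next genes outward, USP50 at 156 kb and the pseudogene DCAF13P3 at 179 kb, were at 0 reads in all libraries and at a mean of 4.13 or less, and were not tested. The log2 fold changes of the tested neighbours ranged from -0.53 to 0.25 (MDA-MB-436) and -0.11 to 0.14 (BoM-1833).

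**Figure D4:**
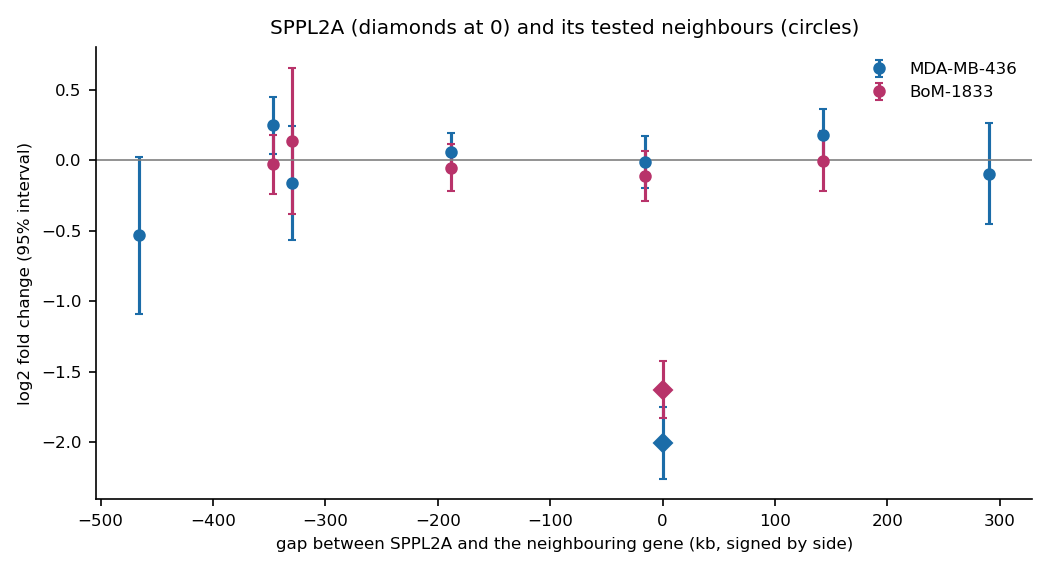
Log2 fold change (y axis, bars: 95% intervals) of SPPL2A (diamonds) and of the tested genes within 500 kb (circles), by the gap to SPPL2A in kb (x axis, negative towards lower coordinates), in MDA-MB-436 (blue) and BoM-1833 (red). All circles lie between -0.53 and 0.25, well above the diamonds at -2.00 and -1.63.

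Other membrane-embedded proteases and their pseudo-protease relatives were called in both directions in MDA-MB-436. Of 12 listed genes, 11 were tested in MDA-MB-436 with 2 higher and 1 lower, against 10.5% and 11.5% of all tested genes (3 called in all, against 22.1%), and 10 were tested in BoM-1833 with 0 called by DESeq2 as deposited, edgeR and limma (1 at an unadjusted p under 0.05, and 1 called without siNT replicate 1); the medians were 0.0071 and 0.014. In MDA-MB-436, by the authors' deposited table, MBTPS2, the site-2 protease that releases membrane-bound transcription factors, rose by 0.29 (SE 0.10, DESeq2 adjusted p 0.0230). RCE1, which trims prenylated proteins, rose by 0.30 (SE 0.10 and adjusted p of 0.0134) and the rhomboid gene RHBDL3 fell by 0.90 (SE 0.29 and adjusted p of 0.0131) in the authors' deposited table. Each of these calls was lost without siNT replicate 2 (DESeq2 adjusted p 0.144, 0.176 and 0.0933), without siPHF19 replicate 2 (0.0948, 0.162 and 0.176) and without siPHF19 replicate 3 (0.0539, 0.118 and 0.0635). Without siPHF19 replicate 1 those of MBTPS2 and RCE1 were lost (0.254 and 0.0735), and without siNT replicate 1 those of MBTPS2 and RHBDL3 (0.0696 and 0.0843).

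Sheddases cut off the ectodomain and so leave the stub that intramembrane proteases need. Of those listed, 2 were called in each line, where 22.1% (MDA-MB-436) and 10.9% (BoM-1833) of all tested genes were called. So few calls are not a result about sheddases as a set. In MDA-MB-436 11 of 11 were tested, with 1 higher and 1 lower (median 0.10), against 10.5% and 11.5% of all tested genes. In BoM-1833 10 were tested, with 0 higher and 2 lower (median 0.08), against 5.21% higher and 5.72% lower among all tested genes; without siPHF19 replicate 2 or 3 the BoM-1833 count was 1. The 3 genes that follow kept their calls in every fit tried, including those without 1 library. In MDA-MB-436 the authors' deposited table gives -0.87 for ADAM12 (SE 0.14, DESeq2 adjusted p 1.42e-08; 602 ± 84.9 to 329 ± 41.8 normalized counts, SD, n = 3). For BACE1, the β-secretase, it gives 0.45 in MDA-MB-436 (SE 0.10, DESeq2 adjusted p 1.67e-04 in the authors' deposited table) and 0.13 in BoM-1833 (SE 0.10 and adjusted p of 0.506). MMP14, a membrane-anchored metalloproteinase, had 17133 ± 1246 normalized counts in BoM-1833 siNT and 12776 ± 589.9 in siPHF19 (SD, n = 3), a fall with -0.42 in the authors' deposited table (SE 0.06, DESeq2 adjusted p 4.93e-09). In MDA-MB-436 MMP14 was at 17.2 normalized counts or less on average and was not called. ADAM10 and ADAM17, the sheddases of many γ-secretase substrates, were not called in either line.

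Known substrates were listed by enzyme. Of 9 genes for SPPL2A and SPPL2B substrates, 6 were tested in MDA-MB-436 with 2 higher and 0 lower (median 0.19), against 22.1% of all tested genes called and 10.5% called higher. In BoM-1833, where 10.9% of all tested genes were called, 5 were tested with 0 called by DESeq2 as deposited, edgeR and limma (median 0.10). Of these 5, 2 had an unadjusted p under 0.05, against 21.4% of all tested genes. Without siNT replicate 2 the number called was 1. NRG1, a growth factor made as a membrane precursor, rose in MDA-MB-436 from 238 ± 22.9 to 446 ± 26.1 normalized counts (SD, n = 3), 0.91 on the log2 scale in the authors' deposited table (SE 0.13, DESeq2 adjusted p 3.35e-11). TMEM106B, a lysosomal membrane protein gene, rose in MDA-MB-436 by 0.29 in the authors' deposited table (SE 0.08, DESeq2 adjusted p 0.00305), a call lost without siNT replicate 2 (0.0880) and without siPHF19 replicates 1 (0.0723) and 2 (0.0673). In BoM-1833 TMEM106B had 0.23 in the authors' deposited table (SE 0.10, DESeq2 adjusted p 0.110). CD74, the best known substrate of SPPL2A, was tested in BoM-1833 alone, at 0.04 in the authors' deposited table (DESeq2 adjusted p 0.813). FASLG and CLEC7A were tested in neither line.

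For SPPL3 the 6 listed glycosyltransferases gave 2 lower of 6 tested in MDA-MB-436 (median -0.10), against 11.5% of all tested genes lower, and 1 higher of 5 in BoM-1833 (median 0.04), against 5.21% higher. B3GAT3, an enzyme of the glycosaminoglycan linker, went opposite ways, at -0.29 in MDA-MB-436 (SE 0.09, DESeq2 adjusted p 0.0103) and 0.33 in BoM-1833 (SE 0.10 and adjusted p of 0.0174) in the authors' deposited table. Both calls were fragile. In MDA-MB-436 that of B3GAT3 was lost without siNT replicate 2 (DESeq2 adjusted p 0.183) and without siPHF19 replicates 1 (0.0741), 2 (0.121) and 3 (0.0775). In BoM-1833 it was lost without siNT replicates 2 (0.208) and 3 (0.0682) and without siPHF19 replicates 2 (0.136) and 3 (0.188). MGAT3, a branching enzyme of N-glycans, fell in MDA-MB-436 from a normalized count of 78.4 ± 9.35 to 31.6 ± 12.3 (SD, n = 3), -1.31 in the authors' deposited table (SE 0.31, DESeq2 adjusted p 3.08e-04).

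Of the 4 genes listed for HM13, which include its substrate HMOX1 and its partner RNF139, DERL1 was called higher in both lines, where 10.5% and 5.21% of all tested genes were called higher. DERL1, a component of endoplasmic reticulum degradation, rose in MDA-MB-436, with 2003 ± 197 normalized counts in siNT and 2950.5 ± 79.1 in siPHF19, and in BoM-1833, with 2286 ± 38.7 and 2592 ± 30.2 (SD, n = 3). The authors' deposited table gives 0.56 (SE 0.09, DESeq2 adjusted p 2.99e-09) and 0.18 (SE 0.06 and adjusted p of 0.0340). In BoM-1833 the DERL1 call was lost without siNT replicates 2 (DESeq2 adjusted p 0.187) and 3 (0.0659) and without siPHF19 replicates 1 (0.204), 2 (0.171) and 3 (0.193). The other 3 genes of this list were not called in the deposited tables, and the list medians were 0.20 and -0.013. HMOX1, which encodes heme oxygenase, had log2 fold changes of 0.22 and -0.36 in the authors' deposited table (DESeq2 adjusted p 0.195 and 0.0902). In BoM-1833 edgeR and limma called 2 genes of the list.

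Substrates of γ-secretase were called in both directions. In MDA-MB-436 24 of 24 were tested, 6 higher and 7 lower (median -0.25), 13 in all, against 22.1% of all tested genes called, 10.5% higher and 11.5% lower. Without siNT replicate 2 the count in MDA-MB-436 was 8 in place of 13. In BoM-1833 21 were tested, 2 higher and 2 lower (median -0.11), against 10.9% called. These 4 calls became 2 without siNT replicate 3, 1 without siPHF19 replicate 1 or 3 and 0 without siNT replicate 2 or siPHF19 replicate 2, and edgeR and limma made 2. The largest of these changes in MDA-MB-436 was that of EFNB2, a membrane-bound ligand of Eph receptors, which fell from a normalized count of 364 ± 4.81 to 166 ± 16.3 (SD, n = 3), -1.14 in the authors' deposited table (SE 0.14, DESeq2 adjusted p 4.42e-15). The adhesion molecule gene L1CAM fell in MDA-MB-436 from 13255 ± 1025 to 8935 ± 163 (SD, n = 3), -0.57 in the authors' deposited table (SE 0.07, DESeq2 adjusted p 3.20e-13). In BoM-1833 EFNB2 had -0.26 (DESeq2 adjusted p 0.102) and L1CAM 0.18 (adjusted p 0.132) in the authors' deposited table. Among Notch receptors, NOTCH1 had -0.29 in MDA-MB-436 (SE 0.12, DESeq2 adjusted p 0.0565) and -0.33 in BoM-1833 (SE 0.11 and adjusted p of 0.0429) in the authors' deposited table. The BoM-1833 call of NOTCH1 was lost in each of the 6 fits without 1 library, with adjusted p (DESeq2) from 0.0603 (without siNT replicate 1) to 0.325 (without siPHF19 replicate 2). In MDA-MB-436 the Notch receptor called was NOTCH3, at -0.67 in the authors' deposited table (SE 0.18, DESeq2 adjusted p 0.00168). Its normalized count went from 774 ± 203 to 487 ± 78.6 (SD, n = 3). In BoM-1833 NOTCH3 had -0.35 (DESeq2 adjusted p 0.648). NOTCH2 (0.15 and 0.03) and NOTCH4 (-0.58 and -0.24) were called in neither line.

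SPPL2A resides among lysosomal proteins, and 12 genes of lysosomal proteases and membrane proteins were examined beside it. In MDA-MB-436 12 were tested, 4 higher and 4 lower (median -0.019), against 22.1% of all tested genes called. In BoM-1833 12 were tested, 1 higher and 1 lower (median 0.04), against 10.9%. The 8 calls in MDA-MB-436 became 4 without siNT replicate 2 or siPHF19 replicate 2 and 5 without siPHF19 replicate 3. In BoM-1833 the count was 0 without siNT replicate 2 or 3 or any 1 of the siPHF19 libraries. The legumain gene LGMN, an asparaginyl protease, fell in both, with 1002 ± 64.5 normalized counts in siNT and 718 ± 27.3 in siPHF19 of MDA-MB-436, and 2205 ± 84.6 and 1920.5 ± 51.1 in BoM-1833 (SD, n = 3). The authors' deposited table gives -0.48 (SE 0.09, DESeq2 adjusted p 2.58e-06) and -0.20 (SE 0.07 and adjusted p of 0.0323). The BoM-1833 call of LGMN was lost without siNT replicates 2 (DESeq2 adjusted p 0.0502) and 3 (0.120) and without siPHF19 replicates 1 (0.0887), 2 (0.257) and 3 (0.183). CTSB, the cathepsin B gene, fell by 0.27 (SE 0.06, DESeq2 adjusted p 1.79e-05) and LAMP2, a major lysosomal membrane protein gene, rose by 0.33 (SE 0.08 and adjusted p of 1.68e-04) in MDA-MB-436, by the authors' deposited table. In BoM-1833 CTSB had -0.15 (DESeq2 adjusted p 0.114) and LAMP2 0.15 (adjusted p 0.182) in the authors' deposited table. No gene of any list fell as far as SPPL2A in either line among those tested. SPPL2A was included for its strong fall, so this is a description and not a test.

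**Figure D5:**
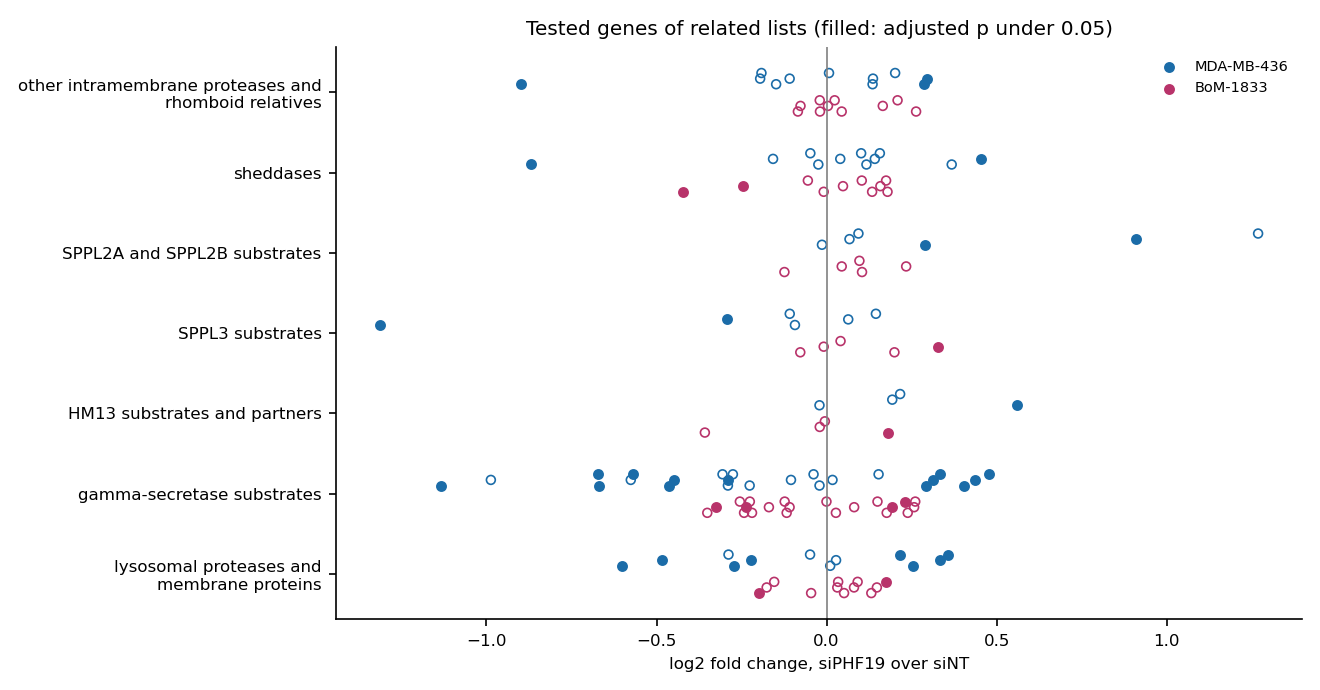
Log2 fold changes (x axis) of the tested genes of each related list (y axis) in MDA-MB-436 (blue) and BoM-1833 (red); filled points have a deposited adjusted p under 0.05. Calls fall on both sides of 0 in most lists, and MGAT3 (-1.31), EFNB2 (-1.14) and NRG1 (0.91) are the outermost filled points, all in MDA-MB-436.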

How the data were processed

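The authors deposited 1 DESeq2 table per line, each with 3 siNT and 3 siPHF19 libraries. The submitters' processing notes name STAR, RSEM 1.3.1, DESeq2 1.46.0 and build hg38; annotation, strand setting and filters are not given in the sources used here. Per the file headers and values, library columns hold a deposited signal, reads scaled by the size factor of each library, beside deposited log2 fold changes with standard errors, the Wald statistic (a score) and p-values with Benjamini-Hochberg adjustment. Tables were normalized separately, so tests stayed within a table and lines were compared through fold changes or ratios within a library.

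All library values were whole multiples of 1 step (tolerance 0.1, 100% of values), which gave back whole counts, 13748100 to 24010271 per library. These are called reads throughout. Whether they are rounded RSEM estimates is not given in the sources used here. DESeq2 1.42.0 on these reads made the same 3143 and 1411 calls. The alternatives used DESeq2, edgeR 4.0.16 and limma 3.58.1, tested on simulated data: DESeq2 found 99.5% of 200 genes changed 2-fold among 19868 in MDA-MB-436 (16 false calls) and 95.5% of 199 among 18968 in BoM-1833 (12 false calls); smaller changes, such as those of the other members, were not simulated. Replicate pairs differed by more than sampling noise (chi-square per degree of freedom at least 2.29). The number of per-sample columns belonging to no sample was 0.

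The members and lists were chosen with earlier results of these data known. Named genes were all members; of each list up to 3 called in a line, with the largest smaller Wald statistic of both lines; the 5 genes most like SPPL2A and 3 most like HM13; and the 2 nearest genes on each side of SPPL2A. CD74, FASLG, CLEC7A, HMOX1, RNF139, ADAM10, ADAM17, NOTCH2, NOTCH3 and NOTCH4 are named outside this rule, after their values were seen. B4GAT1 is listed under an older symbol. Positions and lengths are from GENCODE 29 (GRCh38).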

Additional observations from a re-analysis of the deposited data

Results flagged for a closer look

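Groups of 3 libraries are too small for a check on single outlying samples. By the rule for named genes, 5 genes other than members differed between lines in their response to siPHF19 by z with Benjamini-Hochberg adjustment over 12290 genes. Of all 12290 genes, 601 (4.89%) did so. The rule names genes already called in at least 1 line, so the 5 say nothing about how common such differences are in the lists. The log2 fold change in MDA-MB-436 minus that in BoM-1833 was 0.81 for NRG1 (adjusted p 9.33e-06), -0.62 for B3GAT3 (adjusted p 4.89e-04), 0.38 for DERL1 (adjusted p 0.0120), -0.88 for EFNB2 (adjusted p 3.14e-05) and -0.75 for L1CAM (adjusted p 8.19e-10). B3GAT3 was lower in MDA-MB-436 and higher in BoM-1833, and L1CAM was called lower in MDA-MB-436 alone. HMOX1, named after its values were seen, differed by 0.57 (adjusted p 0.0439). What sets the lines apart in these genes was not tested.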

How the results depend on the processing

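The log2 fold change of SPPL2A stayed between -2.11 and -1.92 in MDA-MB-436 and between -1.71 and -1.56 in BoM-1833 over 14 alternatives in each line. The 224 recomputed member values include those of SPPL2A, which have no test, and a refit of the deposited model, which repeats it. Of the 224, 209 kept their direction and, where tested, their side of the threshold. Another 6 lost a call (all PSENEN in MDA-MB-436), 6 gained one and 3 changed sign: SPPL3 in BoM-1833 to -0.024 and -0.0032, APH1A in BoM-1833 to 0.0031. Leaving out single libraries, these ranged from -0.024 to 0.0468 (SPPL3) and from -0.113 to 0.0031 (APH1A). In MDA-MB-436 the number of called members other than SPPL2A, 1 as deposited, was 2 with edgeR under either normalization and with limma under either pseudocount (PSEN2 added), and 0 to 1 without 1 library; in BoM-1833, 0 as deposited, it was 0 to 1 without 1 library. Over all genes, leaving out single libraries made 1767 (siPHF19 replicate 1) to 3801 (siNT replicate 3) calls in MDA-MB-436, beside 3143 as deposited, and 746 (siPHF19 replicate 2) to 2046 (siNT replicate 1) in BoM-1833, beside 1411. Same-numbered libraries did not deviate together (r from -0.307 to 0.0387; 1 of 3 libraries in MDA-MB-436 and 0 of 3 in BoM-1833 correlated best with its own number), so the numbers were not taken as pairs. With the replicate number as a block, 1610 and 610 genes and 0 and 0 other members were called. No member tested was called different between lines in any of 15 alternatives. Of the recomputed calls of the list genes named, 230 of 280 held, a count that also includes the refit of the deposited model. With 3 libraries a group and standard errors of 0.06 to 0.14 for the other members, small changes could not be resolved.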
